A study of Mus musculus with 50 samples.

Results

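Expression of 10 genes of the T cell receptor complex and its coreceptors was followed across 48 mouse sarcomas and 2 libraries of a sarcoma line. The genes were Cd3d, Cd3e, Cd3g, Cd247, Trac, Cd8a, Cd8b1, Cd4, Cd5 and Cd6. They were chosen by name, and each matched 1 of the 37469 gene rows of the count table. All 10 passed the filter on low counts.

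The tumors were p53/MCA sarcomas, soft tissue tumors that form in the leg muscle (gastrocnemius) of Trp53 fl/fl mice once Adeno-Cre, a Cre-carrying adenovirus, has deleted Trp53 and the carcinogen 3-methylcholanthrene (MCA) has been injected. Primary tumors were sampled in the mouse in which they arose, in 129/SvJae mice induced at 6 to 10 weeks of age. Transplant tumors, called allografts in the labels, each grew from 50000 cells of line 402230 placed in the same muscle of syngeneic mice. That line came from 1 untreated primary tumor, so the transplant model and that line cannot be told apart here. Every mouse received 200 µg of either muDX400, a murine anti-PD-1 antibody, or an isotype control antibody, followed at once by 0 or 20 Gy to the tumor-bearing hind limb. Tumors were taken 3 days later. Per treatment there were 8 libraries of primary tumors and 4 of transplants, 32 and 16 in all, and whole tumors were sequenced after capture of polyadenylated RNA. The question behind the design was how the immune setting differs between both models and with treatment.

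The T cell receptor recognizes a peptide held on an MHC molecule through a pair of variable chains, of which Trac encodes the constant part of the alpha chain. These chains have almost no cytoplasmic tail. Signals pass through the invariant CD3 gamma, delta and epsilon chains (Cd3g, Cd3d, Cd3e) and the zeta chain (Cd247), whose tails are phosphorylated by the kinase Lck. The coreceptor CD8, a dimer of the Cd8a and Cd8b1 products, binds MHC class I and marks cytotoxic T cells, and CD4 binds MHC class II and marks helper and regulatory T cells. Cd4 RNA is also found in some macrophages and dendritic cells, Cd8a in a subset of dendritic cells, and Cd247 in NK cells. Cd5 and Cd6 encode related surface receptors of T cells that tune the strength of the signal, and Cd5 is also carried by some B cells.

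In GENCODE annotation of GRCm38 (mm10), the 3 CD3 genes lay side by side on chromosome 9. Cd3g spanned 44969572 to 44980431 on the minus strand, Cd3d 44981786 to 44987339 on the plus strand and Cd3e 44998740 to 45009627 on the minus strand. Cd3g and Cd3d were 1355 bases apart with their starts facing each other. Cd8b1 (71322788 to 71337494) and Cd8a (71373427 to 71379173) were neighbours on the plus strand of chromosome 6, as were Cd5 (10717116 to 10739002) and Cd6 (10789341 to 10830058) on the minus strand of chromosome 19. Cd4 lay on chromosome 6 (124864692 to 124888221, minus strand), Trac on chromosome 14 (54220521 to 54224206, plus strand) and Cd247 on chromosome 1 (165788681 to 165877277, plus strand). Of the 5329 exon bases of Cd247, 3007 were shared with Pou2f1 on the opposite strand. The sources used here do not say whether counting used strand, so the count of Cd247 is uncertain. Cd3e shared 3.31% of its exon bases with an antisense gene, and the other 8 members shared none.

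Start regions, from 250 bases before to 50 bases after each gene's start, were read from RefSeq on GRCm38.p6 for the 6 members that had an entry (Cd247, Cd8a, Cd3g, Cd3d, Cd3e and Cd5). The 4 shown are those of the CD3 cluster and of Cd8a, the genes whose levels the comparisons below turn on. Capitals mark matches on either strand to the E box letters CAGGTG or CAGCTG, the ETS letters CGGAAG or AGGAAG, the RUNX letters TGTGGT or TGCGGT, the GATA letters AGATAA and the TCF letters CTTTGA. The regions are chr9:44980382-44980681 (minus strand) for Cd3g, chr9:44981536-44981835 (plus strand) for Cd3d, chr9:45009562-45009861 (minus strand) for Cd3e and chr6:71373177-71373476 (plus strand) for Cd8a.
Cd3g: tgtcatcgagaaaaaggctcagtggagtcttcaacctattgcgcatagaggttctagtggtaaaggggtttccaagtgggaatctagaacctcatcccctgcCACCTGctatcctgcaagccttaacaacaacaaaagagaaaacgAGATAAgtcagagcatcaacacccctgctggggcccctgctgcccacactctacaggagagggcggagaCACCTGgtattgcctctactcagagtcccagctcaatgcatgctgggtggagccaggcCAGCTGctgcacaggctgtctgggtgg
Cd3d: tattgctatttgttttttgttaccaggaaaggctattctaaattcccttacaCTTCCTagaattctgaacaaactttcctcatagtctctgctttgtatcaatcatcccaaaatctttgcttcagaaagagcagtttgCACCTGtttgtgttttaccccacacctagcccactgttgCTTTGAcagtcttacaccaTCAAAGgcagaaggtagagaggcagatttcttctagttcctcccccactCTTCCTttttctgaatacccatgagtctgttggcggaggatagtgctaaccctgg
Cd3e: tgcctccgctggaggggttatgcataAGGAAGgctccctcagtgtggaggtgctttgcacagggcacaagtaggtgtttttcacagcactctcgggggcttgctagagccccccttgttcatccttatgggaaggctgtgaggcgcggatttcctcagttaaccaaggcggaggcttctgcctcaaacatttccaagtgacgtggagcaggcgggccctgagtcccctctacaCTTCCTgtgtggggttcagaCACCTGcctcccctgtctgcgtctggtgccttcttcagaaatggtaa
Cd8a: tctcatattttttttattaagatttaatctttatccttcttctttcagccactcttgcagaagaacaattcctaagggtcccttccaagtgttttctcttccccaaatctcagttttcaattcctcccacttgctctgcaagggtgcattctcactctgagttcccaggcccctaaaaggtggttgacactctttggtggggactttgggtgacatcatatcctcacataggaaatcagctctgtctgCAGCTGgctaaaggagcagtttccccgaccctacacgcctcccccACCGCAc
An E box match lay in 6 of these 6 regions, against 32.9% of all 32851 start regions of the same length. ETS letters lay in 4 of 6 (46.5% of all), RUNX letters in 2 of 6 (22.4%), TCF letters in 2 of 6 (16%) and GATA letters in 1 of 6 (11.2%). In Cd8a the E box match began 2 bases before the start, and in Cd3e it began at base 4, with the start itself counted as base 1. These are matches of letters and not shown binding sites.

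The 48 tumor libraries held 31810461 to 54008259 counts. Levels are given as CPM, the reads of a gene relative to a library size scaled by trimmed mean of M values (TMM), and log2 fold changes come from an edgeR quasi-likelihood model of all 8 groups, in which an adjusted p under 0.05 is a call. Libraries of 1 group differed far beyond sampling noise, with a chi-square per degree of freedom of at least 85.6 for every pair, so none was a repeat. Each of the 48 tumor libraries carried an identifier of its own in its title. Both libraries of line 402230 went against their labels, which name a parental tumor and a cell line. In the library labelled parental primary tumor, Ptprc, which encodes the pan-leukocyte protein CD45, was at 0.112 CPM (5 counts), and 8 of 10 members were at 0. In the library labelled cell line Ptprc was at 81.9 CPM, within the range of untreated primary tumors (67.7 to 141.5 CPM on the same scale), and every member had at least 14 counts. Both stayed out of all comparisons between groups, and they are described at the end.

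All 10 members were counted in every tumor (the plot of CPM by group). In transplants the median of Cd8a, the alpha chain of CD8, was 21.5 CPM (range 10.1 to 54.1, n = 16), and in primary tumors it was 4.21 CPM (0.606 to 40.3, n = 32). Cd3e, the CD3 chain through which the complex is most often detected, had medians of 17.2 CPM (5.90 to 38.5) and 4.82 CPM (0.215 to 46.8). Cd4 had medians of 9.72 CPM (4.06 to 35.0) and 10.2 CPM (2.36 to 60.9), which lay close together in both models. On a scale of CPM per kilobase of exon, on which levels of different genes can be set side by side, the median levels in primary tumors were 3.79 for Trac, 2.53 for Cd4, 1.67 for Cd3d, 1.51 for Cd8b1, 1.18 for Cd3e, 1.16 for Cd8a, 1.09 for Cd3g, 0.602 for Cd5, 0.537 for Cd6 and 0.34 for Cd247. In transplants the order by the same measure was Trac (10.4), Cd8b1 (6.62), Cd3d (6.14), Cd8a (5.91), Cd3e (4.22), Cd3g (3.37), Cd4 (2.41), Cd6 (1.17), Cd5 (1.11) and Cd247 (0.883). Cd4 was thus second of 10 in primary tumors and seventh in transplants. The place of Cd247 in both orders is uncertain, since 56.4% of the exon bases its level was divided by are shared with Pou2f1. Each level was divided by all annotated exon bases of the gene (935 for Trac, 7968 for Cd6) and not by the length of the transcript in use. Both orders therefore depend on the annotation.

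**Figure D1:**
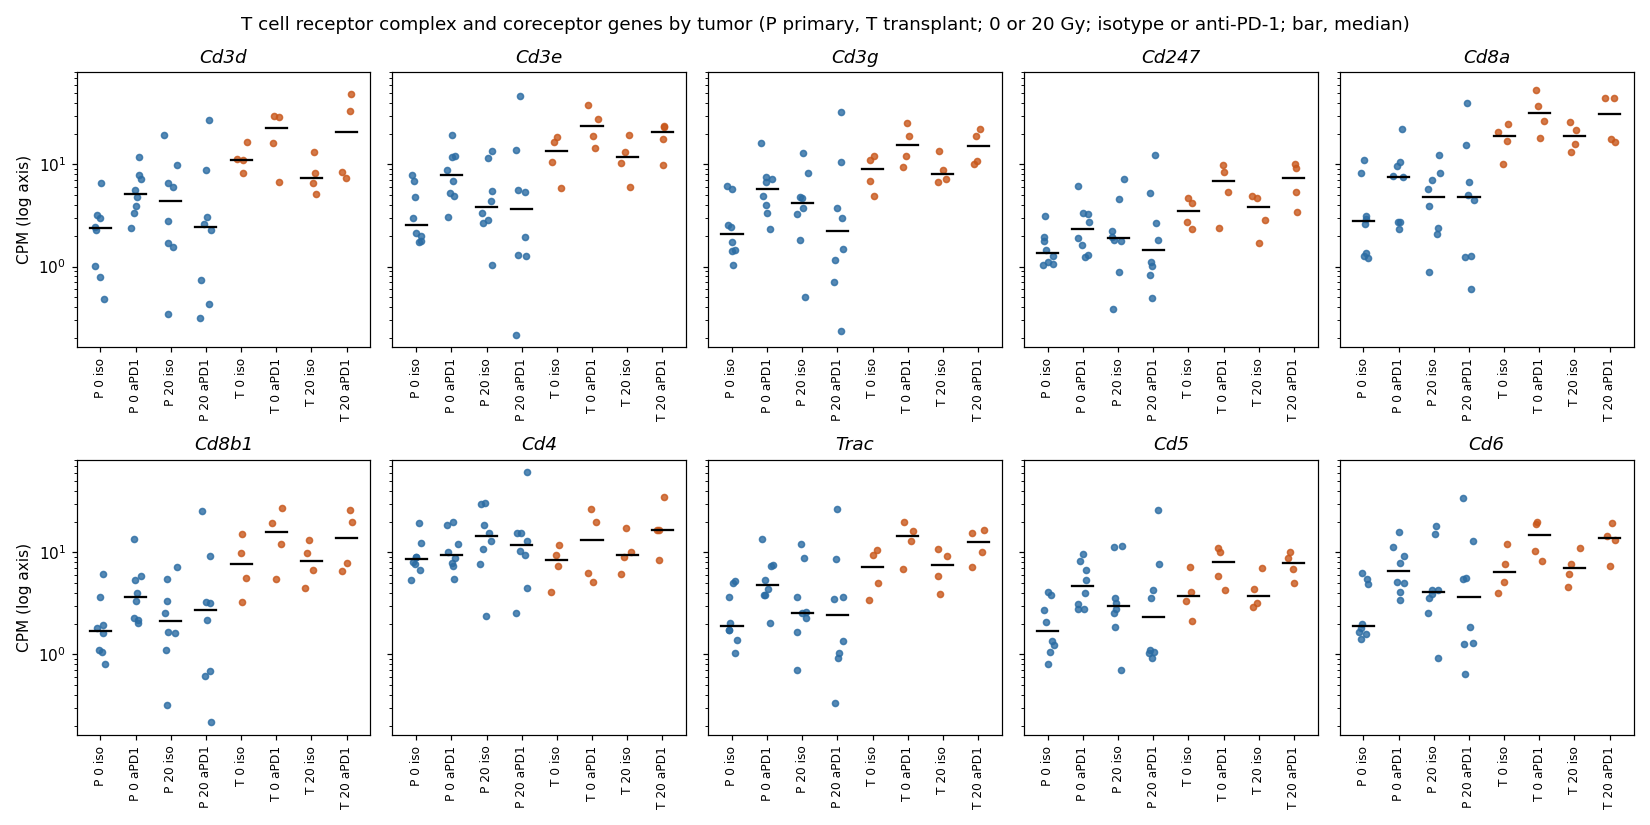
CPM (log axis) of each of the 10 genes in every tumor, by group. Each point is 1 library (8 per primary group, 4 per transplant group) and each bar is the group median. The 4 transplant groups sit above the primary groups for Cd8a, with medians between 18.9 and 32.04 CPM against 2.77 to 7.60 CPM, whereas the Cd4 medians of all 8 groups lie between 8.35 and 16.5 CPM.

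By group mean, the 4 transplant groups held the 4 highest places for Cd3d, Cd3e, Cd3g, Cd247, Cd8a, Cd8b1 and Trac, and 2 of the 4 highest places for Cd4, Cd5 and Cd6. For each member all 7 pairs of neighbouring groups in that order had overlapping ranges. For 8 members the means of all 7 pairs also differed by no more than the larger SD of the pair, and for Cd3g and Trac this held for 6 pairs. The order of the groups is therefore a description.

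Transplant tumors carried more RNA of the receptor complex and of CD8 than primary tumors, but not of CD4. Averaged over the 4 treatments, 7 of 10 members were higher in transplants and none was lower, where 15.7% of 19327 genes tested were called higher and 19.1% lower. The median log2 fold change of the members was 1.19, and that of all genes was -0.002. In bulk tissue, more cells of a type and more RNA per cell cannot be told apart.

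Cd8a was 3.89-fold higher in transplants (log2 fold change 1.96 ± 0.348 SE, edgeR adjusted p = 2.16e-05, n = 16 and 32). Its partner Cd8b1, the beta chain that is largely restricted to T cells, was higher by 1.65 ± 0.364 on the log2 scale (adjusted p = 0.000403). Of the CD3 chains, Cd3d rose most (1.66 ± 0.385, adjusted p = 0.000731), followed by Cd3e (1.34 ± 0.35, adjusted p = 0.00241) and Cd3g (1.27 ± 0.352, adjusted p = 0.00418). Trac, the alpha chain constant region, was higher by 1.12 ± 0.337 (adjusted p = 0.00814) and Cd247 by 1.0 ± 0.295 (adjusted p = 0.00712). With other scaling, no filter, a muscle covariate, DESeq2, limma voom or any 1 library left out, the adjusted p of each of these 7 genes stayed under 0.05, and the highest was 0.0199 for Cd247. Leaving out the 3 libraries with the most B cell marker RNA left 7 of 10 members called higher.

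Cd4, Cd5 and Cd6 did not pass the test. Cd4 differed by -0.07 ± 0.279 on the log2 scale (edgeR adjusted p = 0.882), an interval of -0.62 to 0.49 at 2 SE. Cd5 differed by 0.46 ± 0.324 (adjusted p = 0.284) and Cd6 by 0.76 ± 0.334 (adjusted p = 0.0734). Both were called with limma voom (Cd5 0.84, adjusted p = 0.0229, and Cd6 1.20, adjusted p = 0.00193). Without replicate 4 of the irradiated, anti-PD-1-treated primary tumors, the library with the most RNA of most members, Cd5 was at 0.69 (adjusted p = 0.0444) and Cd6 at 0.96 (adjusted p = 0.00937). Cd6 was also called without replicate 5 of the irradiated, isotype-treated primary tumors (0.86, adjusted p = 0.0355).

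**Figure D2:**
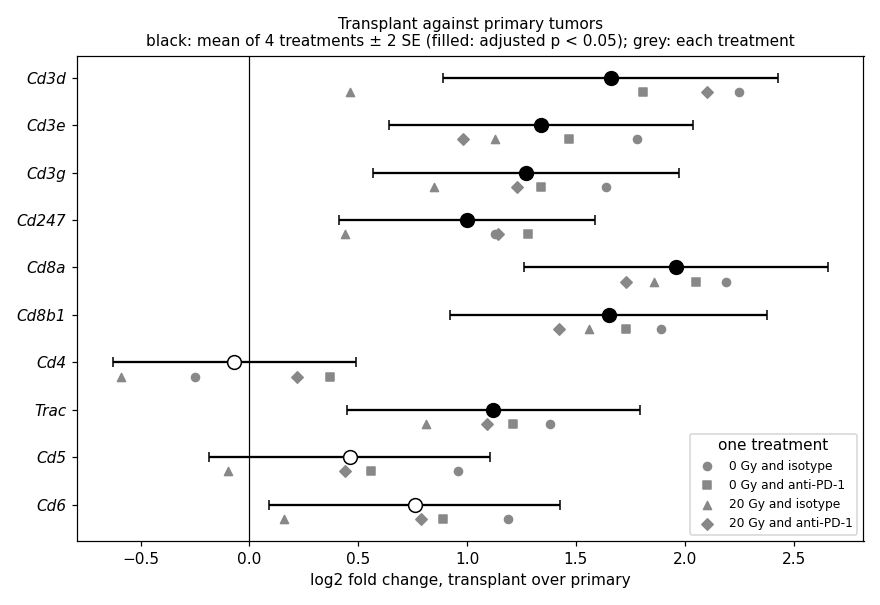
Log2 fold change of transplant over primary tumors for each gene. Black points are the mean of the 4 treatments with bars of 2 SE (filled where the adjusted p is under 0.05, 7 of 10 genes), and grey symbols are the fold changes within each treatment. For Cd8a the 4 treatments lie between 1.73 and 2.19, and for Cd4 they lie on both sides of 0, from -0.59 to 0.37.

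Ptprc also differed between the models. It was higher in transplants by 1.01 ± 0.172 on the log2 scale (adjusted p = 1.04e-05), and when its log2 CPM was put into the model as a covariate, a choice made after seeing the data, no member was called higher. Cd8a was then at 0.59 (adjusted p = 0.174) and Cd3d at 0.26 (adjusted p = 0.651), whereas Cd4 was lower by 1.17 (adjusted p = 0.00293) and Cd5 by 0.78 (adjusted p = 0.0257). Cd3e stood at -0.12, Cd3g at -0.24, Cd247 at -0.25 and Trac at -0.26 in that model, none of them called. That model fitted 1 slope on Ptprc to all tumors. Pooled over treatments, Cd3e and Ptprc had a Pearson r of 0.628 across primary tumors (permutation adjusted p = 0.00037). Across transplants it was 0.172 (permutation adjusted p = 0.52), so a common slope need not hold there. The ratio of Cd3e to Ptprc, from log2(CPM + 0.1), was higher in untreated transplants by 1.27 (exact permutation adjusted p = 0.054). With a pseudocount of 0.5 CPM that adjusted p was 0.0364. After 0 Gy and anti-PD-1, 20 Gy and isotype, and 20 Gy and anti-PD-1, it was higher by 0.79, 0.15 and 0.6. The exact permutation adjusted p-values there were 0.155, 0.868 and 0.558.

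Within single treatments fewer members passed. Among untreated tumors (0 Gy and isotype), Cd8a was at 16.9, 21.0, 24.7 and 10.1 CPM in the 4 transplants, and its lowest, median and highest values in 8 primary tumors were 1.20, 2.77 and 10.98 CPM. Of these transplants 3 lay above every untreated primary tumor. Cd8a was the member called there (2.19 ± 0.698, adjusted p = 0.0365), beside 3.88% of all genes called higher and 6.41% called lower. Cd3d was at 11.1, 16.5, 11.2 and 8.18 CPM in the transplants, above all 8 primary tumors (0.484 to 6.57 CPM), with a log2 fold change of 2.25 ± 0.771 and an adjusted p of 0.053. Leaving out any 1 of 9 of the 12 untreated libraries raised the adjusted p of Cd8a to between 0.0527 and 0.0901, although its log2 fold change stayed between 2.02 and 2.23. These were transplant replicates 1, 2 and 3 and primary replicates 1, 2, 3, 5, 7 and 8, and the call held without transplant replicate 4 or primary replicate 4 or 6.

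Under the other 3 treatments edgeR called no member. After 0 Gy and anti-PD-1, Cd8a was at 37.4, 17.98, 54.1 and 26.7 CPM in transplants and between 2.33 and 22.4 CPM (median 7.60) in primary tumors, with a log2 fold change of 2.05 ± 0.696 (adjusted p = 0.0606). After 20 Gy and isotype it was at 13.3, 15.8, 26.3 and 22.0 CPM, above all 8 primary tumors (0.885 to 12.3 CPM), with 1.86 ± 0.698 (adjusted p = 0.119). After 20 Gy and anti-PD-1 it was at 16.7, 44.7, 45.3 and 17.9 CPM against 0.606 to 40.3 CPM (median 4.77), with 1.73 ± 0.697 (adjusted p = 0.117). At an unadjusted edgeR p under 0.05, 5, 2 and 2 members passed under these 3 treatments, in that order. Of all genes 21.3%, 18.6% and 23.9% passed at the same threshold, so the counts after 20 Gy were near the share of all genes. Of all 10 members DESeq2 called 1, 0 and 0 there, and limma voom called 1, 1 and 8. By edgeR all genes were called higher at 3.39%, 2.47% and 3.04% and lower at 3.96%, 2.4% and 3.72%. Over all genes limma voom called 643, 578 and 1024 higher and 611, 328 and 570 lower. DESeq2 called 736, 523 and 729 genes higher and 1240, 913 and 1314 lower. After 20 Gy and anti-PD-1, 7 members were called higher once replicate 4 of the primary tumors was left out, with Cd3d at 3.19 (adjusted p = 0.00461) and Cd8a at 2.62 (adjusted p = 0.00936).

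The balance of both coreceptors differed between the models under every treatment. The ratio of Cd8a to Cd4, computed as the difference of log2(CPM + 0.1), was 2.16 as the median of untreated transplants and 0.314 as that of untreated primary tumors, a difference of 2.78 on the log2 scale (means of 1.18 ± 0.64 SD, n = 4, and -1.6 ± 1.05, n = 8). All 4 transplants lay above all 8 primary tumors in each of the 4 treatments, which Cd8a alone did in 1 treatment and Cd4 in none. The ratio in the single untreated transplants was 4.08, 2.22, 2.10 and 1.38, and in untreated primary tumors it ran from 0.119 to 1.03. The difference was 2.15 after 0 Gy and anti-PD-1, 2.53 after 20 Gy and isotype and 2.07 after 20 Gy and anti-PD-1. Two-sided exact permutation tests gave p = 0.00202, 0.00202, 0.00202 and 0.00404 for the 4 treatments in the order of this paragraph, of which 0.00202 is the smallest p that 4 against 8 libraries allow. Adjusted over the 42 tests of ratios, these were 0.017, 0.017, 0.017 and 0.0242. Leaving out replicate 4 of the transplants given 0 Gy and anti-PD-1, which had the highest ratio of that group (5.11), gave a difference of 1.85 (adjusted p = 0.0509), and with any other library left out or with a pseudocount of 0.5 CPM the 4 tests stayed under 0.05.

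**Figure D3:**
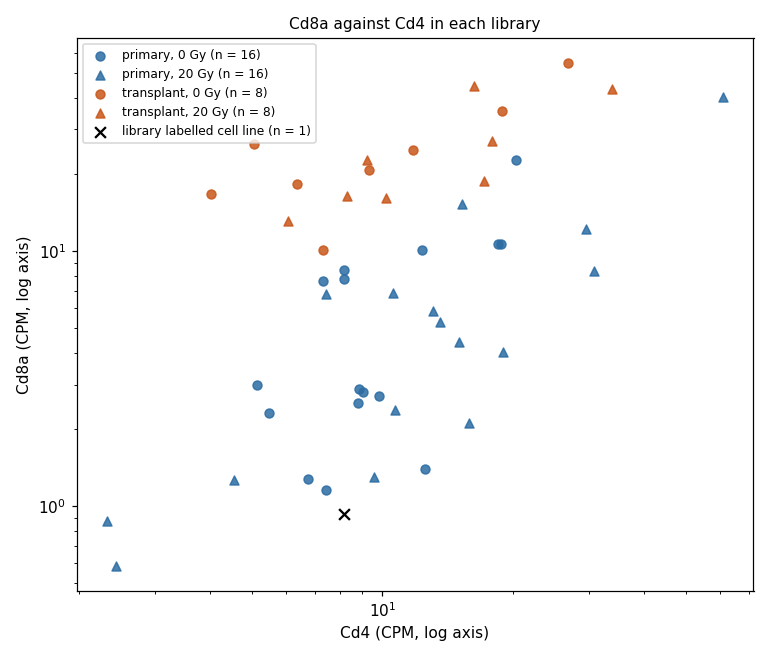
Cd8a against Cd4 (CPM, both axes logarithmic) in 48 tumors and in the library labelled cell line, scaled over 50 libraries. Circles are tumors given 0 Gy and triangles tumors given 20 Gy. The ratio of Cd8a to Cd4 ran from 1.09 to 5.11 in the 16 transplants (orange) and from 0.119 to 1.13 in primary tumors (blue) over all treatments, which overlap at their ends, and the library labelled cell line has a ratio of 0.125.

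Both coreceptors were also set against Cd3e. The ratio of Cd4 to Cd3e was lower in transplants by 2.11 on the log2 scale in untreated tumors (exact permutation adjusted p = 0.0242), by 1.43 after 0 Gy and anti-PD-1 (adjusted p = 0.017), by 1.75 after 20 Gy and isotype (adjusted p = 0.017) and by 1.71 after 20 Gy and anti-PD-1 (adjusted p = 0.0622). Its medians in untreated tumors were 0.597 in transplants and 2.94 in primary tumors. The ratio of Cd8a to Cd3e was higher in transplants by 0.67, 0.72, 0.78 and 0.36 under the same treatments, with exact permutation adjusted p-values of 0.125, 0.0509, 0.0471 and 0.375. The ratio of Cd247 to Cd3e was lower by 0.74, 0.33, 0.66 and 0.62, with exact permutation adjusted p-values of 0.0622, 0.245, 0.0471 and 0.317. Because Cd247 shares exon bases with Pou2f1, this ratio is uncertain. Cd247 and NK cell markers had a Pearson r of 0.599 across primary tumors (permutation adjusted p = 0.001). Across transplants it was 0.229 (permutation adjusted p = 0.41). With the mean log2 CPM of Cd3d, Cd3e and Cd3g, Cd247 had an r of 0.946 across primary tumors and 0.949 across transplants. The NK list includes Klra4, described below as an unsure marker, and Eomes, which is also on the list of T cell transcription factors. The part of NK cells in the ratio of Cd247 to Cd3e was not tested. Ratios of Cd8a to Cd8b1 and of Trac to Cd3e passed no test of 4 each between models at the pseudocount of 0.1 CPM, but at 0.5 CPM the former passed in 3 treatments (exact permutation adjusted p of 0.0399, 0.0371 and 0.0255) and the latter in 2 (both 0.0364). The call for Cd4 to Cd3e in untreated tumors was lost (adjusted p = 0.0509) without transplant replicate 1 or 2. After 20 Gy and isotype, the call for Cd8a to Cd3e was lost without any of 5 libraries (transplant replicates 1, 2 and 4, primary replicates 1 and 3) and that for Cd247 to Cd3e without any of 8 (all 4 transplants, primary replicates 1, 3, 6 and 8), with adjusted p-values up to 0.0749 and 0.0667. With the pseudocount of 0.5 CPM, 18 of 42 tests passed in place of 9, all 9 added ones between models.

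Cd4 could be high where the CD3 chains were low. In the irradiated, anti-PD-1-treated primary tumors, replicate 1 had 15.3 CPM of Cd4 with 1.97 CPM of Cd3e, and replicate 3 had 15.3 CPM of Cd4 with 13.8 CPM of Cd3e. In the library labelled cell line Cd4 was at 8.17 CPM with Cd3e at 0.78 CPM, a ratio of 9.40, beside 1201 CPM summed over 9 macrophage markers. Macrophage markers were abundant in every tumor, with sums of 847 to 6036 CPM in primary tumors and 1337 to 5972 CPM in transplants, and none of the 9 was at 0 in any tumor. Across all 32 primary tumors Cd4 and the mean log2 CPM of these markers had a Pearson r of 0.552 (permutation adjusted p = 0.0029) and a Spearman rho of 0.399 (permutation adjusted p = 0.043). Without the 2 tumors farthest from the median of the markers r was 0.269, so the size of r depended on those tumors. Across 16 transplants r was 0.728 (permutation adjusted p = 0.0029), rho was 0.582 (permutation adjusted p = 0.04) and r without 2 was 0.56. For Cd3e the same relation had an r of 0.524 (permutation adjusted p = 0.0038) and a rho of 0.239 (permutation adjusted p = 0.25) in primary tumors, 0.156 without 2, and in transplants an r of 0.276 (permutation adjusted p = 0.33) and a rho of 0.256 (permutation adjusted p = 0.35), 0.33 without 2. Cd8a had an r of 0.526 (permutation adjusted p = 0.0031) with these markers in primary tumors, 0.284 without 2. Its rho there was 0.365 (permutation adjusted p = 0.061). In transplants Cd8a had an r of 0.452 (permutation adjusted p = 0.1), 0.477 without 2, and a rho of 0.291 (permutation adjusted p = 0.3). These are 6 of the 20 correlations computed, each pools 4 treatments within a model, and they were chosen after the data were seen. The part of macrophages in the level of Cd4 was not tested.

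Radiation raised leukocyte RNA without a called change in any member. In transplants Ptprc rose by 1.51 ± 0.295 on the log2 scale (adjusted p = 0.000568, mean of both antibodies), and in primary tumors by 0.97 ± 0.206 (adjusted p = 0.000373). In transplants the members' log2 fold changes after 20 Gy lay between -0.25 (Cd3e) and 0.39 (Cd4), with a median of -0.02, and 0 of 10 were called by edgeR, DESeq2 or limma voom or had an unadjusted edgeR p under 0.05, where 5.85% of genes were called higher and 1.38% lower. In primary tumors they lay between 0.28 (Cd8b1) and 0.64 (Cd4), with a median of 0.46, and again 0 of 10 were called by any of these tools or had an unadjusted edgeR p under 0.05, where 16.8% of genes were called higher and 14.2% lower. The errors were large. The interval of Cd3e at 2 SE ran from -1.43 to 0.93 in transplants and from -0.52 to 1.16 in primary tumors. Within single antibody groups edgeR called 0 of 10 as well, as did DESeq2 and limma voom, with 1 member of unadjusted p under 0.05 (Cd5 in primary tumors given isotype, 1.13 ± 0.545). All genes were called higher at 9.19% and lower at 9.1% in primary tumors given isotype, 7.92% and 3.25% in those given anti-PD-1, 1.82% and 0.103% in transplants given isotype and 0.538% and 0.0569% in those given anti-PD-1.

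The values of single tumors show how the ratio moved. In untreated transplants Cd3e was at 10.6, 16.7, 18.7 and 5.90 CPM with Ptprc between 95.4 and 222 CPM, and after 20 Gy and isotype Cd3e was at 6.02, 10.4, 19.5 and 13.3 CPM with Ptprc between 310.2 and 508 CPM. The ranges of Cd3e overlapped over most of their length, and those of Ptprc did not overlap. The ratio of Cd3e to Ptprc was lower after 20 Gy in all 4 transplants than in every untreated transplant, by 1.69 on the log2 scale (medians of 0.0321 and 0.0923), with a two-sided exact permutation p of 0.0286, the smallest that 4 against 4 allow, and 0.0706 after adjustment. In primary tumors given isotype the ratio differed by -0.58 (exact permutation adjusted p = 0.191). Ratios of Cd8a to Cd4 did not differ by dose beyond the spread, with -0.27 in transplants (exact permutation adjusted p = 0.741) and -0.01 in primary tumors (adjusted p = 0.982 by the same exact test).

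**Figure D4:**
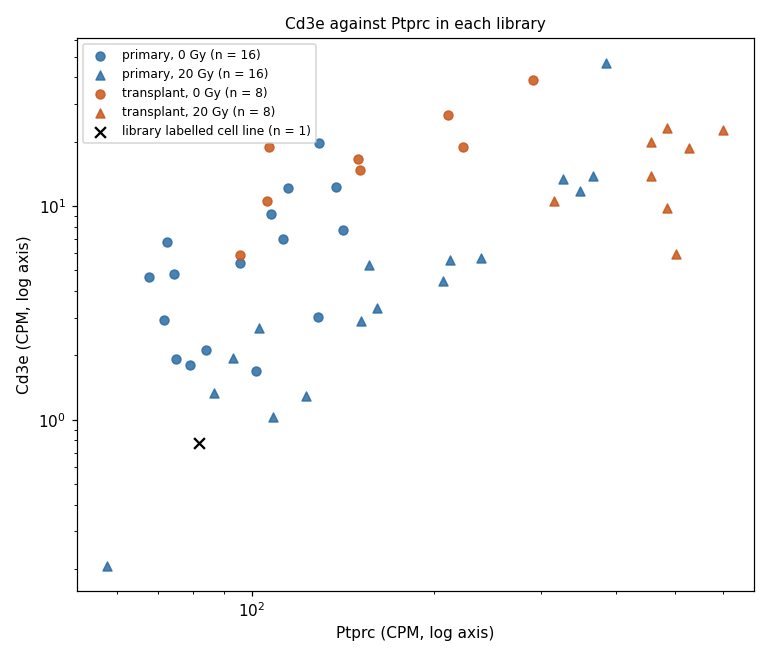
Cd3e against Ptprc (CPM, both axes logarithmic) in 48 tumors and in the library labelled cell line, scaled over 50 libraries. The 8 irradiated transplants (orange triangles) lie to the right of the 8 unirradiated ones (orange circles), at overlapping levels of Cd3e. Scaled over the tumors alone, Ptprc ran up to 288.3 CPM at 0 Gy and from 310.2 CPM after 20 Gy in transplants.

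In primary tumors skeletal muscle markers also moved with the dose. Of 9 such genes 8 were called higher after 20 Gy, with a median log2 fold change of 2.54, and of 9 macrophage markers 7 were called higher (median 0.73), beside 16.8% of all genes. In transplants edgeR called 0 of 9 muscle markers, none of which had an unadjusted p under 0.05, and 5 of 9 macrophage markers were called higher (median 0.87), beside 5.85% of all genes. Between models, no muscle marker was called by edgeR, 1 macrophage marker was called higher and 1 lower, and of 8 NK cell markers 2 were higher and 3 lower, beside 15.7% of all genes called higher and 19.1% lower. Of these NK cell markers, Klra4 was at 70.5 CPM (3156 counts) in the library labelled parental primary tumor, where Ptprc was at 0.112 CPM. Ncr1, Klrb1c and Klre1 had 0 counts there, so Klra4 is not a sure NK cell marker in these data. With a muscle score as a covariate no member was called after radiation in either model, and 7 were called between models. The part of muscle, NK or macrophage RNA in the members' levels was not tested further.

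Anti-PD-1 was compared with the isotype antibody within each model and dose. Of the 10 members 0 were called in any of the 4 comparisons by edgeR, DESeq2 or limma voom, and edgeR called 0 of all 19327 genes in each (0.0%), with 3.66%, 10.1%, 0.678% and 2.65% of genes at an unadjusted p under 0.05 in unirradiated primary tumors, irradiated primary tumors, unirradiated transplants and irradiated transplants. DESeq2 called 6, 44, 1 and 1 genes there and limma voom 0. In unirradiated primary tumors Cd5 and Cd6 differed by 1.30 ± 0.547 and 1.30 ± 0.57, Cd3e by 1.25 ± 0.603 and Cd8a by 1.05 ± 0.601 on the log2 scale, all with an adjusted p of 1.0, and 3 members had an unadjusted p under 0.05. Cd5 had a median of 4.64 CPM (2.77 to 9.51) with anti-PD-1 and of 1.71 CPM (0.809 to 4.04) with isotype, and 4 of 8 tumors given anti-PD-1 lay above all 8 controls. Cd4 differed there by 0.21 ± 0.455. In unirradiated transplants the 10 log2 fold changes lay between 0.81 (Cd3d) and 1.0 (Cd6), with SEs of 0.647 to 0.926. Cd3e was at 28.1, 14.5, 38.5 and 19.2 CPM with anti-PD-1, and 3 of these 4 lay above all 4 untreated transplants. In irradiated transplants they lay between 0.61 (Cd3e) and 1.55 (Cd3d), and in irradiated primary tumors between -0.09 (Cd3d) and 0.94 (Cd8b1).

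The combination of 20 Gy and anti-PD-1 was set against untreated tumors. In primary tumors the members differed by 0.76 (Cd4) to 1.41 (Cd5). Of the members 6 had an unadjusted edgeR p under 0.05, beside 32.9% of all genes. By edgeR or limma voom 0 were called, with Cd5 nearest at an edgeR adjusted p of 0.0653. Of all genes edgeR called 11.4% higher and 7.44% lower there. DESeq2 called 1 member, Cd5 (1.49, adjusted p = 0.0288). Without replicate 5 of the treated group, the library lowest in 9 of 10 members, 3 members were called by edgeR, namely Cd3e (1.56, adjusted p = 0.0442), Cd5 and Cd6 (1.54, adjusted p = 0.043). Cd5 alone was called without replicate 6 of the untreated primary tumors, replicate 8 of those given 20 Gy and isotype, or replicate 1, 6 or 8 of the treated group (1.45 to 1.65 over these and replicate 5). In transplants the members differed by 0.53 (Cd3e) to 1.23 (Cd4), and 0 were called by edgeR, DESeq2 or limma voom or had an unadjusted edgeR p under 0.05. Of all genes edgeR called 4.13% higher and 0.279% lower there, and 16.8% had an unadjusted p under 0.05. The contrasts of treatments share their control groups, so their values stand side by side and were not compared.

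**Figure D5:**
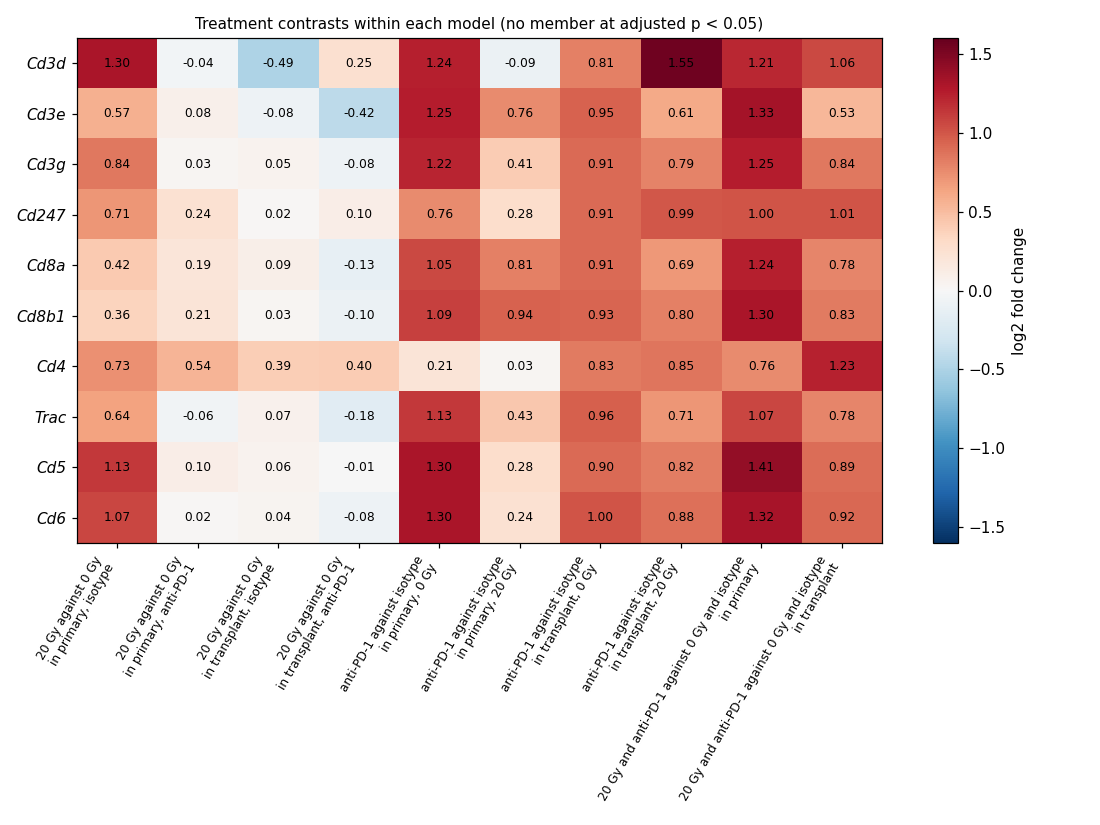
Log2 fold change of each gene (rows) in the 10 treatment contrasts within a model (columns), with the value printed in each cell. Red is higher and blue lower than in the second group named, and no cell has an adjusted p under 0.05. The cells of anti-PD-1 at 0 Gy lie between 0.21 and 1.30, and those of 20 Gy in transplants lie between -0.49 and 0.40.

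Whether the models differed in their response was tested by interaction terms. For radiation and model the terms of the members lay between -0.75 ± 0.8 (Cd3d) and -0.24 ± 0.557 (Cd4), and for anti-PD-1 and model between -0.23 ± 0.724 (Cd3e) and 0.72 ± 0.558 (Cd4). In both, 0 of 10 members were called by edgeR, DESeq2 or limma voom and 0 had an unadjusted edgeR p under 0.05. Of all genes edgeR called 3 higher (0.0155%) and 2 lower (0.0103%) for radiation and 0 (0.0%) for anti-PD-1, with 8.55% and 2.71% of genes at an unadjusted p under 0.05. DESeq2 called 65 and 1 genes and limma voom 7 and 0.

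Primary tumors varied widely among themselves. The highest and lowest of the 32 differed 217-fold in Cd3e, against 6.53-fold among 16 transplants. Both ends of the former were tumors of the group given 20 Gy and anti-PD-1, and within the other 3 primary groups the range was 4.54-fold, 6.39-fold and 12.9-fold. The SD of log2 CPM of Cd3e within the 4 primary groups was 0.88 (untreated), 0.86 (0 Gy and anti-PD-1), 1.18 (20 Gy and isotype) and 2.31 (20 Gy and anti-PD-1), and within the 4 transplant groups, in the same order, 0.75, 0.61, 0.71 and 0.59. For Cd4 the primary groups had SDs of 0.57, 0.64, 1.18 and 1.35. The difference in spread was not tested. Replicate 4 of the irradiated, anti-PD-1-treated primary tumors held the highest level of all 10 members in its group, with 46.8 CPM of Cd3e, 40.3 CPM of Cd8a and 60.9 CPM of Cd4. Replicate 5 of that group held the lowest level of 9 of 10, with 0.215 CPM of Cd3e (11 counts), 0.606 CPM of Cd8a (31 counts) and 2.52 CPM of Cd4 (129 counts).

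The members rose and fell together across tumors. With the mean log2 CPM of Cd3d, Cd3e and Cd3g as the reference, and over 48 tumors, Pearson's r was 0.98 for Trac, 0.979 for Cd8b1, 0.963 for Cd8a, 0.958 for Cd6, 0.954 for Cd247 and 0.894 for Cd5, and 0.634 for Cd4. Cd4 ranked 400th among 13929 genes, and the other members outside the reference ranked from 3 (Trac) to 37 (Cd5). After the mean of each group was taken out, r was 0.973 for Trac, 0.964 for Cd8a and 0.814 for Cd4. Outside the members, the genes most like the reference included Cd27 (0.978), Themis (0.972), Cd2 (0.963), Pdcd1 (0.962), Gimap7 (0.961), Ubash3a (0.96), Cxcr6 (0.959), Ptprcap (0.946) and Zap70 (0.938). Among them Pdcd1 encodes PD-1 itself, the target of the antibody, and Zap70 encodes a kinase recruited to the phosphorylated receptor. These r values describe shared ordering in tumors that share a model and a treatment, and they carry no test. Without the 2 tumors farthest from the median, the r of these genes ran from 0.928 (Zap70) to 0.974 (Cd27).

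Within the CD3 trio the ratios of chains differed between tumors. The ratio of Cd3d to Cd3e counts ran from 0.229 to 1.46 in primary tumors and from 0.467 to 2.05 in transplants, with an SD of 0.66 on the log2 scale over 48 tumors, and that of Cd3g to Cd3e had an SD of 0.33. In the transplants given 20 Gy and anti-PD-1, the ratio was 0.753 (exact 95% interval from counting error only, 0.643 to 0.88), 1.42 (1.31 to 1.54), 2.05 (1.90 to 2.21) and 0.473 (0.413 to 0.541) in replicates 1 to 4. That group had the widest spread of the 8 in this ratio (SD 0.94 on the log2 scale), and the transplants given 20 Gy and isotype had the narrowest (0.21, ratios of 0.858, 0.627, 0.687 and 0.624). This ratio was examined after the data were seen.

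Other genes of the pathway were read from lists. Of 6 other receptor constant genes, Trbc2 (1.36 ± 0.265, adjusted p = 7.53e-05) and Trbc1 (1.05 ± 0.27, adjusted p = 0.00217), the constant regions of the beta chain, were higher in transplants, whereas Trdc of the delta chain (0.46 ± 0.252, adjusted p = 0.161) and 3 constant genes of the gamma chain (0.12 to 0.35) were not called. Of 21 genes of proximal signalling 13 were higher and 2 lower (median 0.73), among them Themis (1.77) and Grap2 (1.59), an adaptor, with Plcg1 lower by 0.30 and Fyn by 0.25. Of 15 genes of costimulation and adhesion 10 were higher (median 0.76), led by Itgal (1.43), a chain of the integrin LFA-1, Cd226 (1.31) and Icos (1.26). Of 12 T cell transcription factors 4 were higher (median 0.14), led by Tbx21 (1.21), Ikzf3 (0.81) and Runx3 (0.78). For comparison, 15.7% of all genes were called higher and the median of all genes was -0.002.

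After 20 Gy several genes of these lists were called where the members were not. Trdc, which encodes the constant region of the delta chain alone, rose in primary tumors by 1.31 ± 0.3 (adjusted p = 0.000876) and in transplants by 1.40 ± 0.424 (adjusted p = 0.0313). Cd69, an early activation marker that other leukocytes also carry, rose by 1.76 ± 0.272 (adjusted p = 3.28e-06) and 2.08 ± 0.387 (adjusted p = 0.000329). In primary tumors 9 of 21 signalling genes were higher and 1 lower, 8 of 15 costimulation genes were higher and 2 of 12 transcription factors were higher and 1 lower. Of all genes 16.8% were called higher there and 14.2% lower, which the share of transcription factors called higher did not exceed. In transplants the counts were 5 and 1, 1 and 0, and 1 and 0, where 5.85% of all genes were called higher and 1.38% lower.

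Reads of the beta chain variable segments give a further view of the receptor. The table held 22 Trbv segments, and their summed counts had a median of 329.5 and a highest value of 924 in transplants, and a median of 105.5 and a range of 12 to 634 in primary tumors. At least 100 counts were present in 16 of 16 transplants and 17 of 32 primary tumors, and those were compared. Rarefied to 100 counts, untreated transplants showed 15.8 ± 1.75 segments (SD, n = 4) and untreated primary tumors 16.2 ± 0.205 (n = 3). The most counted segment took 26.5 ± 8.79% and 16.4 ± 3.38% of the counts. Over the 4 treatments the share of the top segment was higher in transplants by 10.2, 9.52, 11.3 and 5.38 percentage points, and the number of segments lower by 0.335, 1.12, 1.07 and 0.653. None of the 8 tests passed, with exact permutation adjusted p-values of 0.279 to 0.743. The segment counted most often was Trbv13-1 in 5 of 16 transplants and Trbv13-3 in 5 of 17 primary tumors. Segments of a family share sequence, so counts of single segments are uncertain, and counts of reads are not counts of clones.

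The 2 libraries of line 402230 close the account. The library labelled parental primary tumor held 13 counts over all 10 members, 9 of Trac and 4 of Cd247, and none of Cd3d, Cd3e, Cd3g, Cd8a, Cd8b1, Cd4, Cd5 or Cd6 among 48457411 counts, where a count of 0 allows up to 0.0619 CPM (3 counts). The library labelled cell line held 653 counts, 377 of them Cd4, with 36 of Cd3e, 43 of Cd8a and 14 of Cd3d among 41226531. Its Cd3e level of 0.78 CPM lay below all 8 untreated primary tumors (1.69 to 7.73 CPM on the same scale), as did 8 of 10 members, whereas Cd4 (8.17 CPM) lay above 4 of 8. Neither library has a replicate. Placed among the untreated primary tumors, the library labelled parental primary tumor lowers that group by construction, so fits that include it say nothing about stability.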

How the data were processed

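RNA of 48 tumors and 2 libraries of line 402230 was captured with oligo-dT beads and made into stranded libraries by the authors, who ran Trimmomatic, STAR against mm10 and HTSeq over GENCODE M17 genes, per the labels and methods. The deposited values were raw read counts per gene, not normalized. Whether counting used strand is not given in the sources used here.

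Counts were tested in edgeR 4.0.16 (R 4.3.3) by quasi-likelihood with TMM scaling, 1 mean per group and filterByExpr, which left 19327 genes. Tests were two-sided, with Benjamini-Hochberg adjustment over all genes tested and a threshold of 0.05, and edgeR was checked on simulated counts. Alternatives were DESeq2 1.42.0, limma 3.58.1 voom, other scaling, no filter, a muscle covariate, separate fits and each library left out. Ratios and V segment measures were compared by exact permutation. Symbols, exons and coordinates came from GENCODE M21.

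Groups came from the labels. The members, lists and comparisons were chosen with earlier results of these data known. Named genes were the 10 members, up to 3 called genes with the largest changes per pathway list, the 10 genes most like the CD3 chains, Ptprc and markers that moved with a member. A gene that this rule would name is not reported here. The study's exome and single-cell data were not analysed here.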

Additional observations from a re-analysis of the deposited data

Results flagged for a closer look

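In the library labelled cell line all 10 members had more than 3 counts, the limit that a count of 0 allows, and Ptprc was at 81.9 CPM. This library is outside the comparisons of the report, and no control library of its kind was used. These genes are leukocyte genes, and the label names a line of sarcoma cells. The library labelled parental primary tumor, in contrast, had 2 of 10 members above 3 counts.

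Within the 8 groups, 80 sets of values (10 members in 8 groups) were searched for a library far from the others by Dixon's test, and 0 stood apart, where chance flags about 1 in 20. The search did not flag replicate 4 of the irradiated, anti-PD-1-treated primary tumors. Its Cd4 was at 60.9 CPM and the next highest of its group at 15.3 CPM, a gap that weighs more on the CPM scale than on a log scale. The outcome of Dixon's test depends on that scale, so the result holds only for the scale searched. Without it 7 members were called between models after 20 Gy and anti-PD-1, so a search that flags none does not show that no library mattered.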

How the results depend on the processing

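No paired analysis was possible because the replicate numbers were given in accession order and pair no libraries. The count of members called between models over the 4 treatments was 7 in every alternative listed in the methods other than limma voom (9), and ran from 7 to 9 with 1 library left out. With the Ptprc covariate, added after seeing the data, it was 2, both lower, and Cd3e (-0.12), Cd3g (-0.24), Cd247 (-0.25), Trac (-0.26) and Cd5 (-0.78) changed sign. In untreated tumors the count was 2 with library totals, DESeq2 or voom, 0 without the filter or with the muscle covariate and 6 with these groups fitted alone, and ran from 0 to 3 with 1 library left out. After 0 Gy and anti-PD-1 it was 3 with the groups alone and 1 with voom or DESeq2 (0 to 1 with 1 left out). After 20 Gy and isotype it was 1 with voom. After 20 Gy and anti-PD-1 it was 8 with voom (0 to 7 with 1 left out). For the combination in primary tumors it was 1 with DESeq2 or with the library labelled parental primary tumor, which lowers the control group by construction (0 to 3 with 1 left out). Ratio tests passing were 18 with a pseudocount of 0.5 CPM (6 to 14 with 1 left out), and 14 came without replicate 6 of the untreated primary tumors. V segment tests passed 0 with a minimum of 50 counts. The summed CPM of the members in the library labelled cell line was 15.8 by library total in place of 14.2. The cause of these differences was not tested. Uncalled log2 fold changes changed sign in 99 fits of a member and comparison, besides those with 1 library left out. Counts limit the precision in the poorest primary tumors, where Cd3e and Cd8b1 had as few as 11.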
